A study of Mus musculus with 15 samples.

Results

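Of the 22797 genes counted, 33 were examined here: genes of protein folding, degradation and translocation at the endoplasmic reticulum (ER) and of the unfolded protein response, the program that cells turn on when unfolded protein builds up in the ER. They were chosen by name from a list of known pathway members and leave out Xbp1. The rule itself uses no measured value, but the list was drawn up with earlier results of these data known. By role they were 9 chaperones and lectins, 3 protein disulfide isomerases, 2 secreted ER stress proteins, 7 members of ER-associated degradation, 3 members of the translocation machinery, 3 stress sensors and 6 members of the Atf4 branch. The first 3 roles, 14 genes, are called folding genes below, and they were set against the 6 genes of the Atf4 branch. All 33 passed the filter on low counts and were tested among 15339 genes.

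PolyA RNA was sequenced from group 3 innate lymphoid cells (ILC3; 8 libraries) and group 2 innate lymphoid cells (ILC2; 7 libraries) sorted from the small intestine of female mice at 4 times of day: ZT4, ZT10, ZT16 and ZT23, where ZT counts hours from lights on. Each time had 2 libraries per cell type except ZT16 in ILC2, which had 1. The cells of 6 mice were pooled at each time before the sort, so the libraries of a time may share animals, and p-values measure the spread between libraries, which may in part be technical. No genotype, strain, age or treatment was given, and the labels put all ILC3 libraries in batch 2 and all ILC2 libraries in batch 1, so that cell type and batch cannot be told apart.

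Total counts ran from 5903163 to 24794403 in ILC3 libraries and from 4016298 to 18538315 in ILC2 libraries. The sort labels were checked against defining genes: the 10 ILC2 markers were all lower in ILC3, and 6 of 10 ILC3 markers were higher in ILC3. Markers of other cells also differed: 12 of 12 plasma cell genes, 10 of 10 plasmacytoid dendritic cell genes and 4 of 9 B cell genes were lower in ILC3, and 8 of 8 mast cell genes tested were higher in ILC3. Of 10 macrophage and dendritic cell genes 5 were higher in ILC3, and of 10 T cell genes 4 were lower and 5 higher. Jchain, the antibody joining chain made by plasma cells, took 0.0275% to 0.43% of the counts in ILC3 libraries and 1.85% to 15.7% in ILC2 libraries. Plasma cells are known for a large ER and high levels of folding genes, so Jchain is given beside the results throughout. In these bulk libraries fewer cells of a type and less RNA per cell cannot be told apart.

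Proteins bound for the cell surface or for secretion enter the ER through the Sec61 channel, are folded by chaperones and disulfide isomerases, and are sent back to the cytosol for destruction when folding fails. Unfolded protein is sensed by 3 membrane proteins: Ern1 (IRE1), which splices Xbp1 mRNA, Atf6, which is cut to release a transcription factor, and Eif2ak3 (PERK), which phosphorylates eIF2 and so raises translation of Atf4. Xbp1 and Atf6 are known to act on chaperone and degradation genes through ER stress response elements, while Atf4 acts on amino acid and stress genes through C/EBP-ATF composite sites and is also reached by other stresses, such as amino acid shortage.

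The promoters are shown first, because the folding genes and the Atf4 branch are known for different control elements. RefSeq promoter windows on GRCm38.p6, 250 bases before to 50 bases after each transcription start, were at hand for 28 of the 33 genes. In all, 5 motifs were searched on both strands: ERSE, the ER stress response element (CCAAT, then 9 free bases, then CCACG), its core CCACG alone, ERSE-II (ATTGG, then 1 free base, then CCACG), the UPRE, an Xbp1 element (TGACGTGG), and the C/EBP-ATF composite site (TGATGNAA). The core lies inside each ERSE and ERSE-II. ERSE stood in the windows of 8 of the 28 genes and in 0.119% of the 32851 windows of all genes. It was found in 7 of the 12 folding genes with a window, in 1 of 6 degradation genes and in 0 of 6 genes of the Atf4 branch. The genes were chosen as known members of pathways with known elements, so these motif counts describe the list and are not a test. Counts of members are by gene, while the shares over all are by window. The sites below are read on the strand of the motif, with its fixed letters in capitals, and show how the 9 bases between both parts vary from gene to gene.
Hspa5 ERSE: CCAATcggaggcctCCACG
Calr ERSE: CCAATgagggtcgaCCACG
Hsp90b1 ERSE: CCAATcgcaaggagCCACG
Hsp90b1 ERSE: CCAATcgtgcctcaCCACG
Canx ERSE: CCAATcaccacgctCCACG
Pdia6 ERSE: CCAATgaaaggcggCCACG
Dnajc3 ERSE: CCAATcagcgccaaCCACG
Creld2 ERSE: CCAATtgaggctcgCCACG
Syvn1 ERSE: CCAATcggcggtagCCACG

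ERSE-II, held by 0.0365% of all windows, stood in 2 of the 28 genes, Herpud1 and Dnajb11. The C/EBP-ATF composite site, held by 3.97% of all windows, was found in 3 of 6 genes of the Atf4 branch, in 0 of 12 folding genes and in Herpud1. The CCACG core alone was common, in 32.8% of all windows and 23 of the 28 genes, and the UPRE, in 0.676% of all windows, was in 0 of the 28. These sites are written in the same way.
Herpud1 ERSE-II: ATTGGgCCACG
Dnajb11 ERSE-II: ATTGGcCCACG
Chac1 composite site: TGATGcAA
Trib3 composite site: TGATGtAA
Asns composite site: TGATGaAA
Herpud1 composite site: TGATGcAA

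Whole windows are printed for 3 of the genes with such sites: Hsp90b1 with a pair of ERSE sites, Herpud1 with ERSE-II and a composite site, and Chac1 with a composite site and no ERSE. Each is read on the strand of its gene, with ERSE, ERSE-II and composite sites in capitals and the CCACG core in capitals only where it lies inside one of them.
Hsp90b1 promoter, chr10:86705395-86705694, minus strand: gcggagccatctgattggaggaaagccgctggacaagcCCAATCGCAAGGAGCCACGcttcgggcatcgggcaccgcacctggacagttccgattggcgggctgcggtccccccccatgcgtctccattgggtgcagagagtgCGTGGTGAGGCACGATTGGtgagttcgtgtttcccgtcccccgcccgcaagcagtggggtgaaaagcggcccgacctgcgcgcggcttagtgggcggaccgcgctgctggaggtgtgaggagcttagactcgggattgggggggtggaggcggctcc
Herpud1 promoter, chr8:94386179-94386478, plus strand: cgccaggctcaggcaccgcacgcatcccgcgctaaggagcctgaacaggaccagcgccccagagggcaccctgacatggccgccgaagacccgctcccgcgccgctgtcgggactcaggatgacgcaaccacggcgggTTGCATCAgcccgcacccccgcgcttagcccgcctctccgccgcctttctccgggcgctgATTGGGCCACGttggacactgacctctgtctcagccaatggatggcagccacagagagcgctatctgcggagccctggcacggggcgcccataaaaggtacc
Chac1 promoter, chr2:119350992-119351291, plus strand: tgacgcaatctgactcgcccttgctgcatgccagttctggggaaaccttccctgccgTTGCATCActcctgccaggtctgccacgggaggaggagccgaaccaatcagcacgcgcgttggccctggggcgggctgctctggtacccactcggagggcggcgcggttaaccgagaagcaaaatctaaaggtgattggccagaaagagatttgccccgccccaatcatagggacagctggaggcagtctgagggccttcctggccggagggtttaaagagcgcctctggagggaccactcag
A match says only that these letters are present, and occupancy of the sites was not measured.

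**Figure D1:**
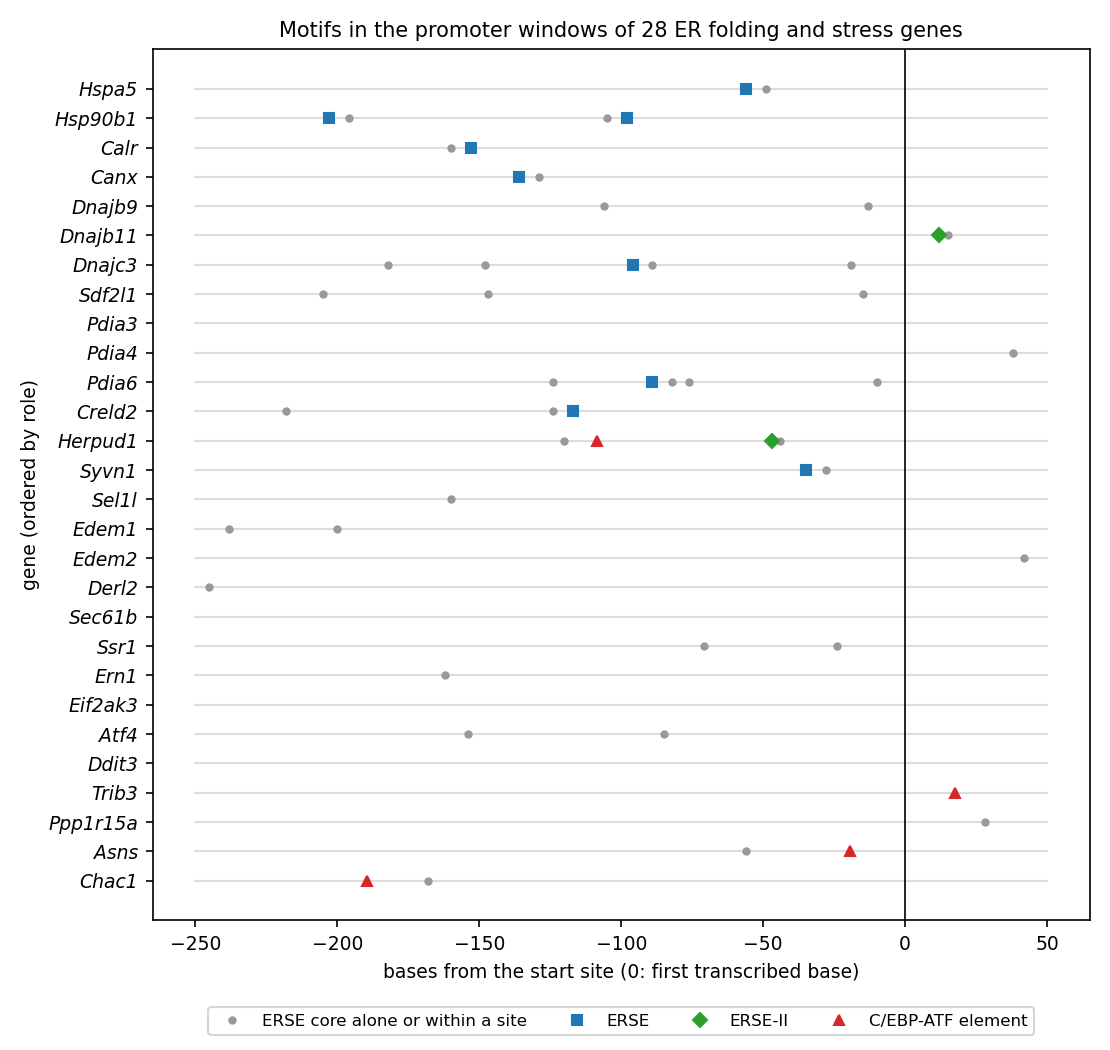
Positions of the motifs found in the promoter windows of the member genes (x axis, bases from the transcription start; 1 row per gene, both windows of Derl2 on 1 row). ERSE sites lie in folding genes and Syvn1, and composite sites (C/EBP-ATF elements) lie in Chac1, Trib3, Asns and Herpud1.

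Most of the ER genes had lower levels in ILC3. In edgeR's quasi-likelihood test 25 of the 33 genes were lower in ILC3 at adjusted p under 0.05 and 0 were higher, where 27.1% of all genes tested were called, 12% lower and 15.1% higher. The fitted log2 fold change, ILC3 minus ILC2, was below 0 for 32 of 33 genes and had a median of -0.81, against 0.11 over all genes tested. In 15 of the 33 genes every ILC3 library was below every ILC2 library, as was so for 5.57% of all genes, and in 0 of the 33 every ILC3 library was above every ILC2 library, as in 6.51% of all genes. Summed over all members, the level was 7968 to 11898 CPM (counts scaled by library size and TMM factors) in ILC3 libraries and 12357 to 22469 CPM in ILC2 libraries. Cell type here cannot be told apart from batch, and the higher Jchain of the ILC2 libraries moves with the same split.

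**Figure D2:**
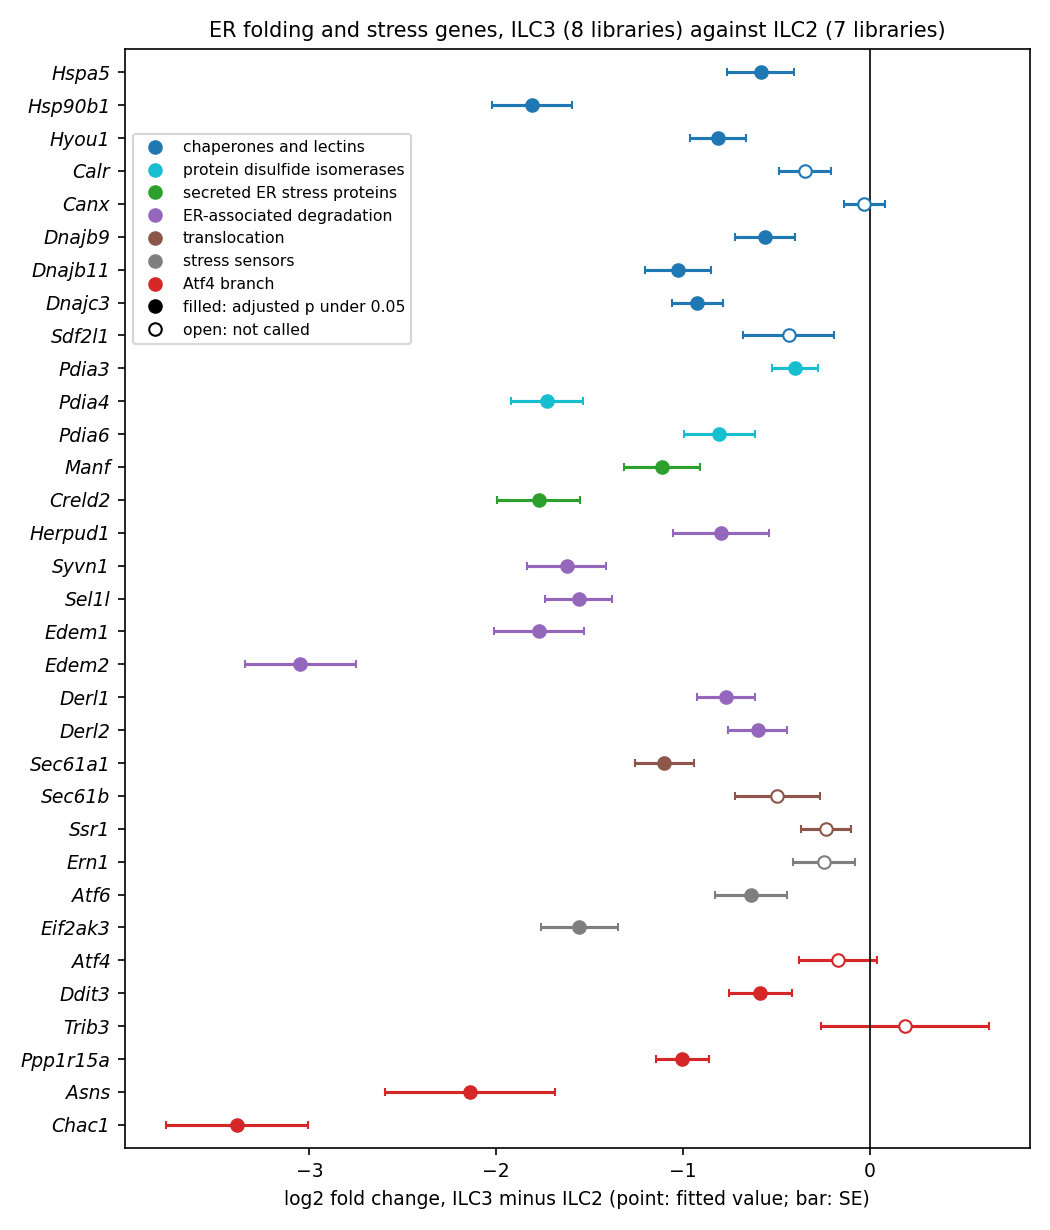
Fitted log2 fold change of each of the 33 genes, ILC3 minus ILC2 (x axis), with bars of 1 standard error, ordered by role. Points left of 0 are lower in ILC3: 25 genes were called lower, 0 higher and 8 were not called.

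Among the 9 chaperones and lectins 6 were lower in ILC3. Hsp90b1 (GRP94), the ER member of the HSP90 family (chr10:86690841-86705444), had 425 to 736 CPM in ILC3 libraries with a median of 587, and 1214 to 2932 CPM in ILC2 libraries with a median of 1889. The libraries did not overlap, and the log2 fold change was -1.81 ± 0.22 (SE; adjusted p = 6.32e-05), the largest drop among the folding chaperones. Dnajc3 (P58IPK), a cochaperone of BiP, averaged 288 ± 38.4 CPM in ILC3 and 541 ± 88.3 CPM in ILC2 (SD, n = 8 and 7 libraries, as for other means below), without overlap, with a log2 fold change of -0.92 ± 0.14 (adjusted p = 0.000359). Dnajb11 (ERdj3), another cochaperone, had 118 to 152 CPM in ILC3 and 184 to 412 CPM in ILC2, a log2 fold change of -1.03 ± 0.18 (adjusted p = 0.000969). Hyou1 (GRP170), a large chaperone and nucleotide exchange factor, was lower by less (-0.81 ± 0.15, adjusted p = 0.0017), as was Dnajb9 (ERdj4; -0.56 ± 0.16, adjusted p = 0.0209), and the libraries of both overlapped.

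Hspa5 (BiP), the central ER chaperone and the member with the highest level per length in both cell types (mean 622 CPM per kilobase in ILC3 and 911 in ILC2), was lower by less. It had 1256 to 2846 CPM in ILC3 libraries with a median of 1408, and 1970 to 2792 CPM in ILC2 libraries with a median of 2403. The ILC3 library with 2846 CPM, ZT4 replicate 1, stood above every ILC2 library, and the next ILC3 library had 1954 CPM. The log2 fold change was -0.58 ± 0.18 (adjusted p = 0.0294), and the call held in 16 of 22 alternative settings, the Jchain term described below not among them, with adjusted p up to 0.0751 when ILC3 ZT10 replicate 2 was left out.

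The lectin chaperones of the calnexin cycle, which hold glycoproteins until they are folded, were not called. Canx averaged 567 ± 43.9 CPM in ILC3 and 573 ± 34.1 CPM in ILC2, a log2 fold change of -0.03 ± 0.11 (adjusted p = 0.903), and this sign turned when library size was the only scaling (0.12). Calr averaged 703 ± 77.3 CPM in ILC3 and 886 ± 152 CPM in ILC2, with -0.35 ± 0.14 (adjusted p = 0.0887). Sdf2l1, a partner of the ERdj cochaperones, had 85.0 to 161 CPM in ILC3 and 84.6 to 258 CPM in ILC2, with -0.43 ± 0.24 (adjusted p = 0.211). Calr passed the threshold in DESeq2, with adjusted p = 0.0384, and both Calr and Sdf2l1 passed it without ILC2 ZT23 replicate 2.

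The 3 protein disulfide isomerases were all lower in ILC3, by different amounts. Pdia4 (ERp72) had 130 to 211 CPM in ILC3 libraries with a median of 152, and 295 to 745 CPM in ILC2 libraries with a median of 525. Its libraries did not overlap, and the log2 fold change was -1.73 ± 0.19 (adjusted p = 4.16e-05). Pdia6 (P5) fell less (-0.81 ± 0.19, adjusted p = 0.00787), and Pdia3 (ERp57), the isomerase that works with Calr and Canx, fell least of the isomerases (-0.40 ± 0.12, adjusted p = 0.0317) with a call that held in 15 of the 22 settings and had adjusted p = 0.14 when library size was the only scaling. Pdia3 and its partners Calr and Canx thus had fitted values between -0.40 and -0.03, while Hsp90b1 and Pdia4 had -1.81 and -1.73. Other folding genes lay near Pdia3, such as Sdf2l1 (-0.43), Dnajb9 (-0.56) and Hspa5 (-0.58), so small differences were not particular to these partners.

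Manf and Creld2 are small ER proteins that can be secreted and are known targets of ER stress. Creld2 had 56.3 to 80.2 CPM in ILC3 libraries and 115 to 349 CPM in ILC2 libraries (-1.77 ± 0.22, adjusted p = 9.11e-05). Manf had 142 to 199 CPM in ILC3 libraries and 202 to 538 CPM in ILC2 libraries (-1.11 ± 0.20, adjusted p = 0.00143). Neither gene overlapped between the cell types.

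All 7 genes of ER-associated degradation were lower in ILC3, with a median log2 fold change of -1.56. Edem2, a protein of the mannosidase family that marks misfolded glycoproteins for removal (chr2:155701673-155729475), had 75.3 to 107 CPM in ILC3 libraries with a median of 91.2, and 300.3 to 1519 CPM in ILC2 libraries with a median of 660. Its 8 ILC3 libraries lay close together while its ILC2 libraries were spread, the highest 5.06 times the lowest, and the log2 fold change was -3.05 ± 0.30 (adjusted p = 1.5e-05). Edem1, of the same family, had 242 to 362 CPM in ILC3 and 561 to 1891 CPM in ILC2 (-1.77 ± 0.24, adjusted p = 0.00018).

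The ubiquitin ligase Syvn1 (HRD1) and its adaptor Sel1l, the core of the complex that passes ER proteins to the proteasome, both fell. Syvn1 averaged 68.4 ± 10.1 CPM in ILC3 and 206 ± 76.5 CPM in ILC2 (-1.62 ± 0.21, adjusted p = 0.000123), and Sel1l averaged 103 ± 16.6 CPM in ILC3 and 295 ± 87.9 CPM in ILC2 (-1.56 ± 0.18, adjusted p = 4.94e-05). Neither overlapped between the cell types. The derlins, membrane proteins of the exit route, fell less: Derl1 by 0.77 and Derl2 by 0.60 on the log2 scale (adjusted p = 0.00305 and 0.0147). Herpud1, which assembles the ligase complex and carries ERSE-II and a composite site, had 362 to 881 CPM in ILC3 and 452 to 1665 CPM in ILC2. These overlapped, the log2 fold change was -0.80 ± 0.26 (adjusted p = 0.0373), and the call held in 11 of the 22 settings, with adjusted p up to 0.0901.

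Of the 3 translocation genes, Sec61a1, the channel itself, was lower in ILC3, with 308 to 418 CPM in ILC3 libraries and 531 to 1038 CPM in ILC2 libraries (-1.10 ± 0.16, adjusted p = 0.000267). The small subunit Sec61b had -0.50 ± 0.23 (adjusted p = 0.131) and Ssr1, of the translocon-associated protein complex, had -0.23 ± 0.13 (adjusted p = 0.214). Sec61b passed the threshold without ILC2 ZT23 replicate 2 (adjusted p = 0.0194).

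Of the 3 sensors, Eif2ak3 showed a gap between the cell types. It had 25.2 to 46.0 CPM in ILC3 libraries with a median of 36.5, and 57.4 to 148 CPM in ILC2 libraries with a median of 103 (-1.55 ± 0.21, adjusted p = 0.000148). Atf6 was lower in ILC3 with overlap (-0.64 ± 0.19, adjusted p = 0.0292), a call that held in 13 of the 22 settings, with adjusted p up to 0.0749. Ern1 was not called (137 ± 50.6 CPM in ILC3 and 159 ± 19.0 CPM in ILC2; -0.25 ± 0.17, adjusted p = 0.302).

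The Atf4 branch was split among its members. Chac1, an enzyme that degrades glutathione and a known Atf4 target (chr2:119351242-119354326), had 0.788 to 8.0 CPM in ILC3 libraries with a median of 2.16, and 15.4 to 61.8 CPM in ILC2 libraries with a median of 32.6. These levels rest on 17 to 135 counts per ILC3 library and 159 to 516 counts per ILC2 library. The libraries did not overlap, and the log2 fold change of -3.39 ± 0.38 (adjusted p = 4.14e-05) was the lowest of the 33. Ppp1r15a (GADD34), the phosphatase subunit that reverses eIF2 phosphorylation, had 276 to 503 CPM in ILC3 and 654 to 985 CPM in ILC2, again without overlap (-1.0 ± 0.14, adjusted p = 0.000258).

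Asns, the asparagine synthetase, had 2.75 to 28.8 CPM in ILC3 libraries with a median of 4.71, and 10.7 to 53.2 CPM in ILC2 libraries with a median of 28.1. Only ILC3 ZT23 replicate 2, with 28.8 CPM, and ZT4 replicate 2, with 11.7 CPM, reached the lowest ILC2 library, and the log2 fold change was -2.14 ± 0.46 (adjusted p = 0.00416). Those same libraries had the highest epithelial marker sums of the ILC3 libraries, 4988 and 1830 CPM, against 192 to 949 CPM in the other ILC3 libraries. They also had the highest goblet and Paneth cell marker sums of the ILC3 libraries, 5705 and 2407 CPM, and the most Jchain, 4080 and 2251 CPM. The parts of epithelial and plasma cell RNA in the Asns values were not tested. Ddit3 (CHOP), a transcription factor of prolonged stress, averaged 13.8 ± 3.02 CPM in ILC3 and 20.0 ± 5.63 CPM in ILC2 (-0.59 ± 0.17, adjusted p = 0.0233), and its call held in 15 of the 22 settings, with adjusted p up to 0.105.

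Atf4 mRNA itself did not pass the test. It had 208 to 556 CPM in ILC3 libraries with a median of 254, and 178 to 503 CPM in ILC2 libraries with a median of 317 (-0.17 ± 0.21, adjusted p = 0.6). Trib3, a pseudokinase induced by Atf4 and Ddit3, was near the limit of the depth, with 29 to 86 counts per ILC3 library and 15 to 29 counts per ILC2 library, and had 0.19 ± 0.45 (adjusted p = 0.817). It was the only one of the 33 with a fitted value above 0.

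**Figure D3:**
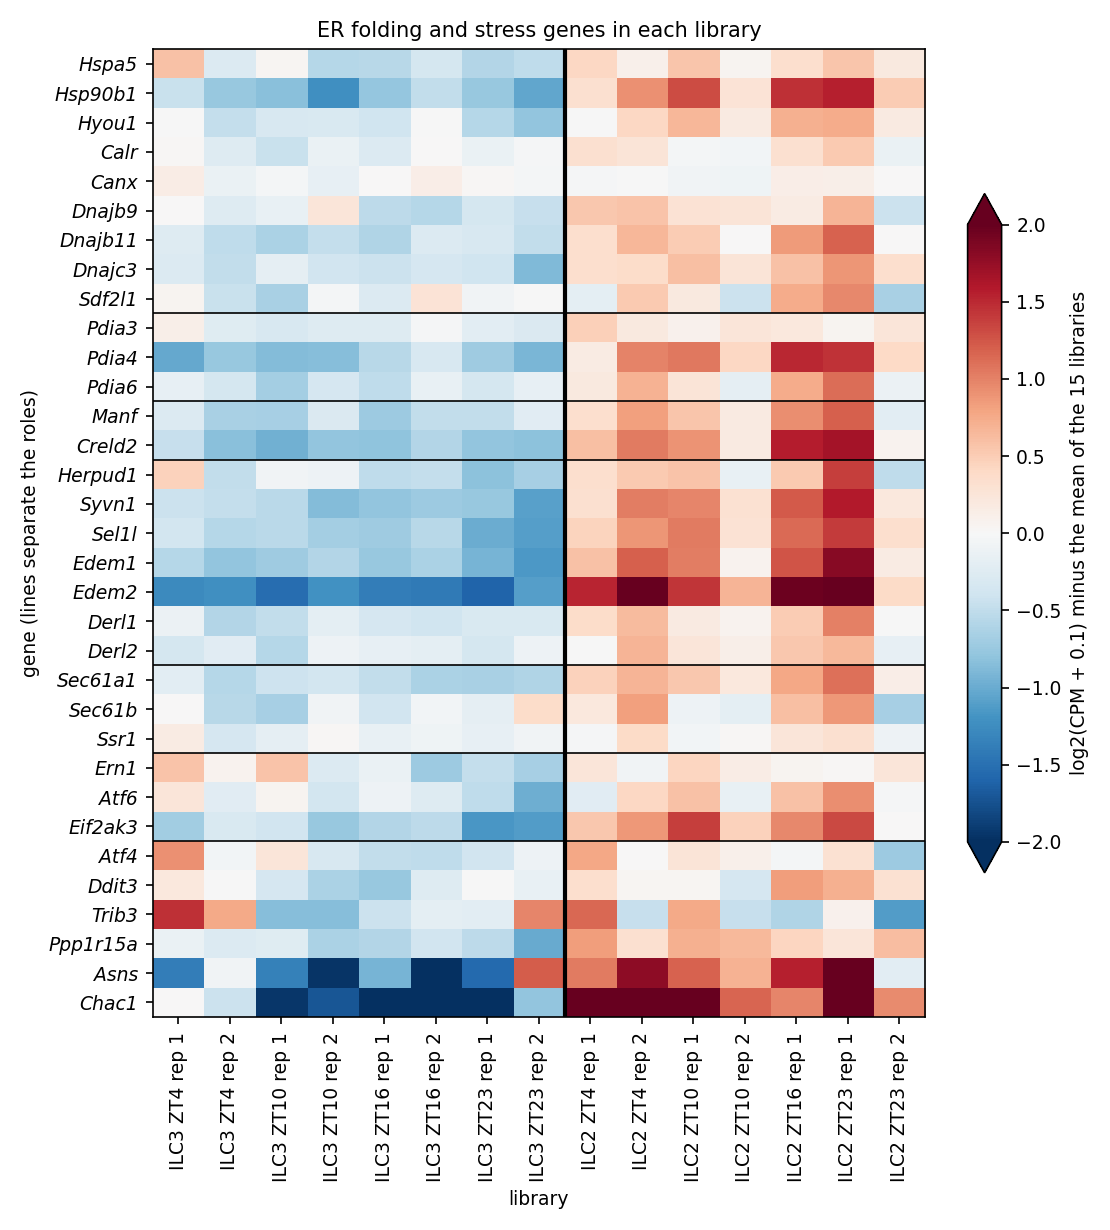
Level of each of the 33 genes in each library (log2 of CPM + 0.1, minus the mean of that gene over the 15 libraries; color scale), with ILC3 libraries left of ILC2 libraries and times in order within each. The ILC3 side is low for most folding and degradation genes, and ILC2 ZT23 replicate 1 is the highest ILC2 library for many of them.

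Folding genes and the Atf4 branch had close medians of the difference between the cell types, but the branch was scattered. Of the folding genes 11 of 14 were called lower, with a median log2 fold change of -0.81 (-1.81 to -0.03). Of the Atf4 branch 4 of 6 were called lower, with a median of -0.79 (-3.39 to 0.19). Wider lists, given below, differed more. Other folding enzymes and cochaperones had 13 of 24 lower and 1 higher (median -0.63). Of 28 other Atf4 targets and amino acid response genes, 5 were lower and 4 higher (median 0.13). Over all genes tested, 12% were lower and 15.1% higher. The mean log2 CPM of the 14 folding genes was 8.16 ± 0.13 in ILC3 and 8.98 ± 0.32 in ILC2 (SD, n = 8 and 7 libraries), with 8.06 to 8.40 in ILC3 and 8.57 to 9.45 in ILC2. That of the 6 Atf4 branch genes was 4.31 ± 0.52 in ILC3 and 5.49 ± 0.40 in ILC2, with 3.81 to 5.04 in ILC3 and 4.83 to 5.92 in ILC2. The folding level thus did not overlap between cell types and the Atf4 branch level did. The folding level minus the Atf4 branch level averaged 3.85 ± 0.51 in ILC3 and 3.49 ± 0.31 in ILC2, a gap of 0.36 that was within the spread of the libraries and turned to -0.08 when Chac1 was left out. No test was made on these means over members.

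No gene of the list was called for time of day. Over the 4 times, 0 of the 33 genes passed adjusted p under 0.05 in ILC3, in ILC2 or in the test of a different course between the cell types, and of all genes 0% passed in each. At an unadjusted p under 0.05 there were 2 members in ILC3, Chac1 and Ern1, where 4.36% of all genes had such a p, 0 in ILC2, where 3.36% had, and 0 for the different course, where 2% had. DESeq2 also called 0 of the members in each of these tests, while over all genes it called 23 in ILC3, 24 in ILC2 and 2 for the different course. With 1 or 2 libraries per time, changes smaller than the spread between libraries could not be seen at this depth of replication.

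The levels by time were as follows. The folding level in ILC3 was 8.40 and 8.08 (ZT4), 8.06 and 8.14 (ZT10), 8.06 and 8.31 (ZT16), then 8.13 and 8.06 (ZT23). In ILC2 it was 8.81 and 9.08 for ZT4, 9.03 and 8.63 for ZT10, 9.28 for the ZT16 library, then 9.45 and 8.57 for ZT23. The ILC2 libraries of ZT23 were thus the highest and the lowest of that cell type. The Atf4 branch level in ILC3 was 5.04 and 4.85 in the ZT4 libraries and 4.12 and 3.85 in ZT10. It was 3.81 and 3.92 in ZT16 and then 4.00 and 4.88 in ZT23. ZT4 replicate 1 was thus the highest, followed by ZT23 replicate 2 and ZT4 replicate 2. The latter pair had the highest epithelial marker sums of the ILC3 libraries, 4988 and 1830 CPM, and the most Jchain, 4080 and 2251 CPM. ZT4 replicate 1 had the lowest epithelial sum of them, 192 CPM. The part of epithelial and plasma cell RNA in the branch level was not tested. In ILC2 the Atf4 branch level was 5.89 and 5.54 in the ZT4 libraries and 5.73 and 5.16 in ZT10. It was 5.38 in ZT16 and then 5.92 and 4.83 in ZT23.

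Chac1 in ILC3 had 8.0 and 5.87 CPM in the ZT4 libraries, 1.99 and 2.34 CPM in ZT10, 0.788 and 1.67 CPM in ZT16 and then 1.28 and 4.55 CPM in ZT23. Trib3 in ILC3 had 6.14 and 3.74 CPM in the ZT4 libraries, 1.15 and 1.15 CPM in ZT10, 1.58 and 1.87 CPM in ZT16 and then 1.86 and 4.37 CPM in ZT23. Atf4 in ILC3 had 556 and 284 CPM in the ZT4 libraries, 348 and 236 CPM in ZT10, 209 and 208 CPM in ZT16 and then 226 and 273 CPM in ZT23. All 3 had their highest ILC3 library at ZT4 replicate 1. So did many other members outside the Atf4 branch, among them Hspa5, Hsp90b1, Canx and Edem1, though not all. That library had the lowest total count of the ILC3 libraries, 5903163. Asns, also of the Atf4 branch, was instead highest in ILC3 ZT23 replicate 2, with 28.8 CPM. For Chac1 and Trib3 the next highest were ZT4 replicate 2 and ZT23 replicate 2, the libraries with the most epithelial marker RNA and Jchain. The part of such RNA in their values was not tested. Ern1, the sensor, had 212 and 150 CPM in the ZT4 libraries, 212 and 118 CPM in ZT10, 130 and 85.5 CPM in ZT16 and then 102 and 89.4 CPM in ZT23 in ILC3.

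**Figure D4:**
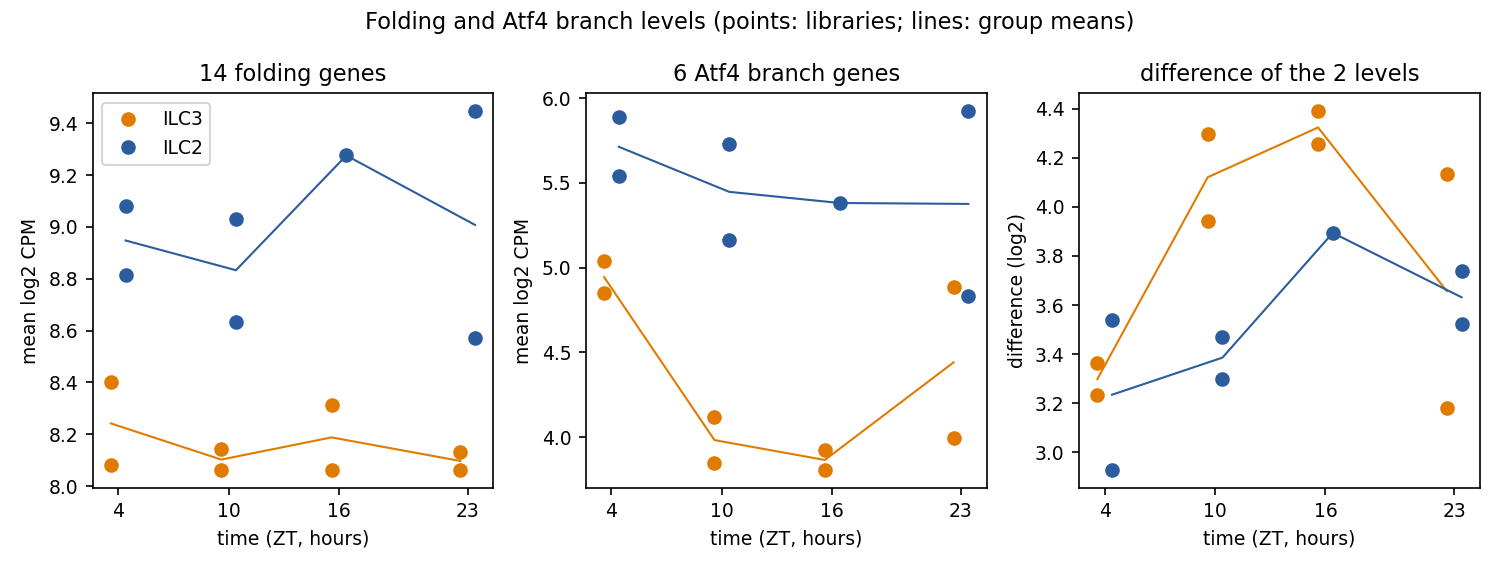
Mean log2 CPM of the 14 folding genes and of the 6 Atf4 branch genes in each library (points) by time of day in hours, with their difference in the right panel; lines join group means and ILC3 points stand left of ILC2 points. The folding level in ILC3 stays between 8.06 and 8.40, and the Atf4 branch level in ILC3 runs from 3.81 to 5.04.

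Within ILC2, part of the list moved with the plasma cell gene Jchain. Jchain had 270 to 4080 CPM in ILC3 libraries and 18105 to 188364 CPM in ILC2 libraries, and among the ILC2 libraries ZT23 replicate 1 was the highest and ZT23 replicate 2 the lowest. In a fit of each gene on log2 CPM of Jchain over the 7 ILC2 libraries, 12 of the 33 genes had a positive slope at adjusted p under 0.05 and 0 a negative one, where 1.45% of all genes were called positive and 0.274% negative. The 12 were 5 folding genes (Sdf2l1, Creld2, Manf, Pdia6 and Dnajb11), 4 degradation genes (Edem2, Herpud1, Edem1 and Derl1), Sec61b, Sec61a1 and, of the Atf4 branch, Asns. These values rest on few libraries: the count was 0 without ILC2 ZT23 replicate 1, 1 without ZT23 replicate 2, 4 without ZT10 replicate 2, 7 without ZT4 replicate 2 and 19 without ZT4 replicate 1.

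The slope was highest for Edem2, 0.72 ± 0.07 log2 units per log2 unit of Jchain (SE, n = 7 libraries; adjusted p = 0.00118 in edgeR's test). It had 1519 CPM in the ILC2 library with the most Jchain and 300.3 CPM in that with the least. Asns followed with 0.68 ± 0.10 (adjusted p = 0.00769), at 53.2 and 10.7 CPM in the same libraries. Other slopes called ran from 0.29 for Sec61a1 to 0.52 for Creld2. Hspa5 (0.09 ± 0.08), Canx (0.04 ± 0.06), Pdia3 (-0.03 ± 0.07), Ern1 (-0.09 ± 0.07) and Ppp1r15a (-0.13 ± 0.08) had slopes near 0. Ppp1r15a had 654 CPM in the ILC2 library with the most Jchain and 848 CPM in that with the least.

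In ILC3, where Jchain was lower, 0 of the 33 genes had a called slope, and 0.0261% of all genes had a positive one. The largest of the 33 was that of Asns (0.65 ± 0.16, SE, n = 8 libraries; adjusted p = 0.0779 in edgeR's test), close to its slope in ILC2. The difference of the slopes, ILC3 minus ILC2, was tested after the slopes had been seen: it passed for Edem2 (-0.68 ± 0.09, adjusted p = 0.00687), Herpud1 (-0.72 ± 0.13, adjusted p = 0.0321) and Edem1 (-0.61 ± 0.11, adjusted p = 0.0321), 3 of 33 genes where 0.183% of all genes were called negative. The slopes cover Jchain ranges that do not overlap, so this test cannot tell cell type from Jchain range. The difference was not refitted with libraries left out.

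Of the 25 genes lower in ILC3, 10 also had a called slope on Jchain in ILC2 and 15 did not. An uncalled slope is not a slope of 0. Those of Chac1 (0.52 ± 0.17), Syvn1 (0.41 ± 0.09), Pdia4 (0.34 ± 0.11), Hsp90b1 (0.32 ± 0.12), Eif2ak3 (0.32 ± 0.12) and Sel1l (0.31 ± 0.09) were within the range of the called ones. The rest lay below it: Dnajb9 (0.28 ± 0.08), Atf6 (0.27 ± 0.10), Derl2 (0.26 ± 0.08), Ddit3 (0.19 ± 0.13), Hyou1 (0.16 ± 0.09), Dnajc3 (0.14 ± 0.07), Hspa5, Pdia3 and Ppp1r15a. The part of plasma cell transcripts in the cell type difference was not tested. In the ILC2 library with the least Jchain, 19 of the 33 genes were above every ILC3 library, where 18.8% of all genes were. Hsp90b1 had at most 736 CPM in ILC3 libraries and 1421 CPM in that ILC2 library. Likewise Edem2 had at most 107 CPM in ILC3 and 300.3 CPM there, Pdia4 at most 211 CPM in ILC3 and 348 CPM there, and Chac1 at most 8.0 CPM in ILC3 and 15.4 CPM there. That library still held 18105 CPM of Jchain, above the 4080 CPM of the highest ILC3 library. Its plasmacytoid dendritic cell marker sum was 2214 CPM, near the ILC2 median of 2273 CPM and above the 710 CPM of the highest ILC3 library. The part of that cell type in these levels was not tested. With a Jchain term beside the 8 group means, 0 of the 33 genes were called in either direction, where 0.313% of all genes were. The Jchain ranges of the cell types do not overlap, and in that fit the cell type difference and the Jchain term are hard to separate, as the wide standard errors of 0.41 or more show.

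**Figure D5:**
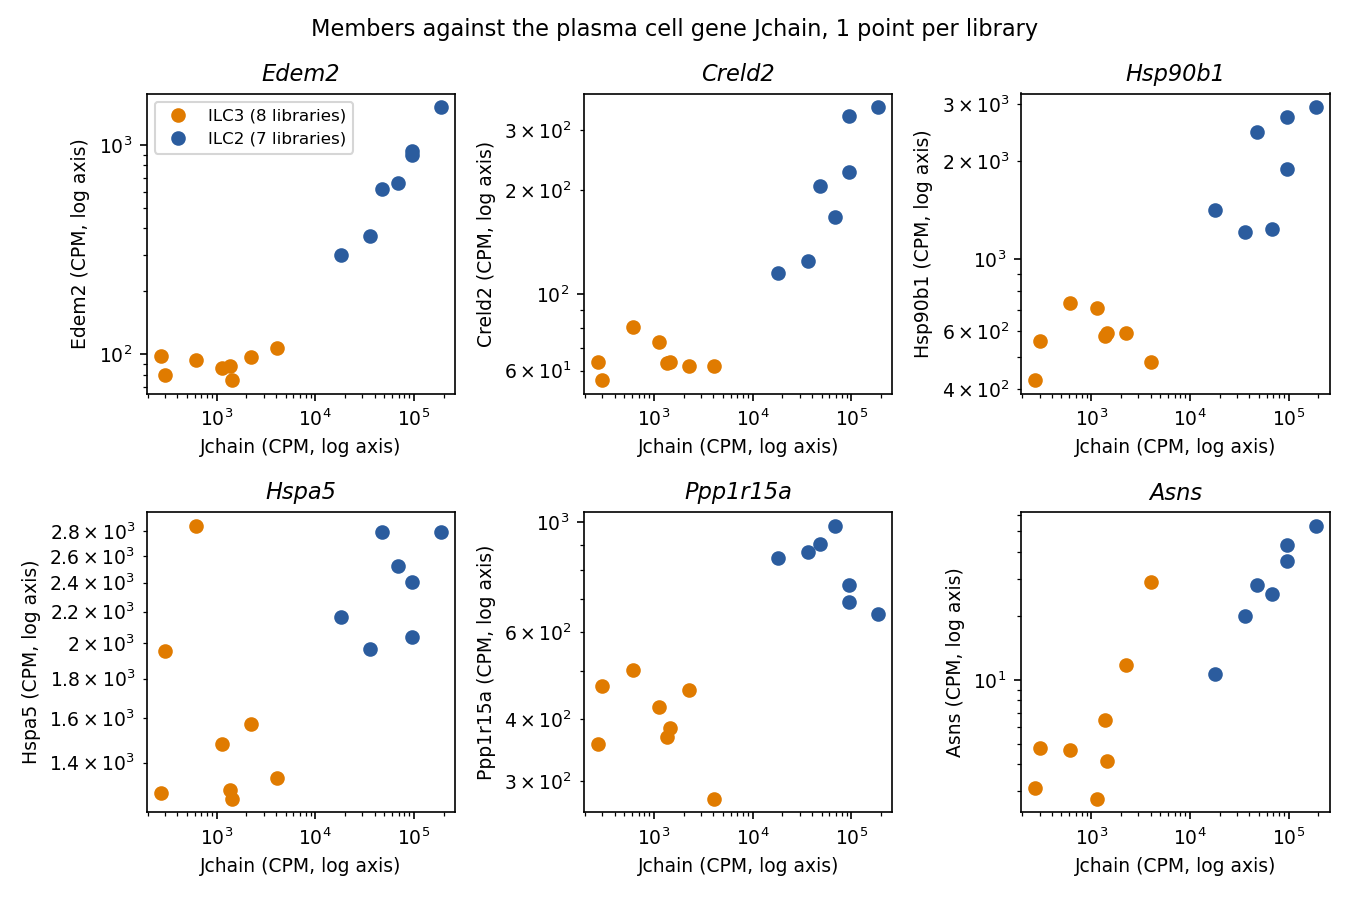
Level of 6 members (CPM, log y axis) against Jchain (CPM, log x axis), with 1 point per library and a color for each cell type. The ILC3 libraries lie at lower Jchain than any ILC2 library, and Edem2 and Asns climb with Jchain among ILC2 libraries while Ppp1r15a does not.

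Other genes of the same pathways were taken from lists of 159 genes named for their known roles, also drawn up with earlier results known. Their counts are to be read against the 12% of all genes called lower and 15.1% called higher. Folding enzymes and cochaperones had 13 of 24 tested genes lower in ILC3 and 1 higher, with a median log2 fold change of -0.63. The smallest p-values of that list were those of Txndc5, a disulfide isomerase (-4.21 ± 0.36), Fkbp11, a prolyl isomerase that is also in the plasma cell marker list (-5.04 ± 0.51), Sil1, a nucleotide exchange factor of BiP (-1.37 ± 0.16), and Prdx4, an ER peroxidase (-3.26 ± 0.41). Of these, Txndc5 and Prdx4 also had called slopes on Jchain in ILC2, of 0.72 and 0.87.

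Degradation genes had 14 of 21 lower and 1 higher (median -0.51), led by Derl3, a derlin that is also in the plasma cell marker list (-5.15 ± 0.40), the mannosidase Man1b1 (-1.75 ± 0.18), the lectin Erlec1 (-1.76 ± 0.18) and the deglycosylating enzyme Ngly1 (-1.13 ± 0.12). Translocation, signal peptidase and glycosylation genes had 17 of 25 lower and 0 higher (median -0.68), led by the signal peptidase subunits Spcs3 (-1.80 ± 0.14) and Spcs2 (-1.29 ± 0.14) and the signal recognition particle receptor genes Srpr (-1.39 ± 0.17) and Srprb (-1.21 ± 0.15). Spcs3 averaged 285 ± 36.4 CPM in ILC3 and 1003 ± 144 CPM in ILC2, and its slope on Jchain in ILC2 was -0.04. COPII and ER exit genes had 11 of 20 lower and 0 higher (median -0.37), led by the cargo receptor Lman1 (-1.91 ± 0.19), the retrieval receptors Kdelr1 (-0.98 ± 0.16) and Kdelr3 (-3.46 ± 0.63) and the coat subunit Sec24d (-1.10 ± 0.18).

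Of 28 other Atf4 targets and amino acid response genes, 5 were lower in ILC3 and 4 higher, with a median of 0.13, close to the shares over all genes. The smallest p-values were those of Phgdh, the first enzyme of serine synthesis (12.9 ± 3.31 CPM in ILC3 and 60.0 ± 14.4 CPM in ILC2; -2.23 ± 0.20), Atf3, a stress transcription factor (641 ± 94.0 CPM in ILC3 and 240.3 ± 44.3 CPM in ILC2; 1.46 ± 0.15), the proline enzyme Pycr1 (-3.94 ± 0.45) and Ndrg1 (2.11 ± 0.27). Cytosolic tRNA synthetases, many of which Atf4 is known to raise, had 7 of 20 lower in ILC3 and 0 higher (median -0.27), led by Vars (-0.94 ± 0.12), Kars (-0.55 ± 0.10), Sars (-0.58 ± 0.12) and Yars (-0.79 ± 0.18). Of 19 stress transducers and eIF2 regulators 4 were lower and 1 higher (median -0.04), and the smallest p-values were those of Tnfrsf10b, a death receptor (-2.07 ± 0.20), the transcription factors Bhlha15 (-4.78 ± 0.55) and Creb3l2 (-1.82 ± 0.23), and Bak1, of the mitochondrial death pathway (0.65 ± 0.15). All genes named in these lists had adjusted p of 0.00787 or less in edgeR's test.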

How the data were processed

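PolyA RNA of sorted ILC3 and ILC2 was measured in 15 libraries, and the authors deposited raw read counts per gene, counted with featureCounts on mm10, per the submitters' processing notes. The sources used here do not name the aligner, the strandedness, the handling of multi-mapping reads or the sort gates, so antisense and overlapping reads cannot be told apart. Of 22797 Entrez identifiers, 22718 were named through the RefSeq gene table of GRCm38.p6, which is also the build of the promoter windows and positions.

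Groups came from the cell type and time in the labels. Counts were filtered with edgeR's filterByExpr (minimum count 10), scaled with TMM and fitted in edgeR 4.0.16 (R 4.3.3, limma 3.58.1) with 8 group means over all 15 libraries, because 1 group holds 1 library. The fit had 7 residual degrees of freedom and a common biological coefficient of variation of 0.425. The contrast between cell types was the average ILC3 group minus the average ILC2 group, and time was tested by F-tests within each cell type and for their interaction. Slopes on log2 CPM of Jchain were fitted within each cell type. Benjamini-Hochberg adjustment ran over all 15339 genes tested, with 0.05 as the threshold. Standard errors were the log2 fold change divided by the root of F. Mean levels used log2 CPM with a prior count of 2, and levels per length were CPM divided by the deposited gene length. Alternatives included DESeq2 1.42.0, other scalings, no filter, a replicate block, a Jchain term and leaving out each library in turn. The pipeline was tested on simulated data.

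The members, roles, marker lists and other gene lists were chosen with earlier results of these data known. All 33 members were named by rule, and of each other pathway list the 4 genes with the smallest p among those with adjusted p under 0.05 for ILC3 minus ILC2. Replicates were compared before averaging, with chi-square per degree of freedom from 22.0 to 229. Total counts per library limit precision for genes of low count such as Trib3.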

Additional observations from a re-analysis of the deposited data

Results flagged for a closer look

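Of 72 sets of member values and levels within a cell type, 5 had a single library far from the rest, where chance alone gives about 1 in 20. Hspa5 had 2846 CPM in ILC3 ZT4 replicate 1, with the next ILC3 library at 1954 CPM, and Atf4 had 556 CPM in the same library, with the next at 348 CPM. Asns had 28.8 CPM in ILC3 ZT23 replicate 2, with the next at 11.7 CPM. In ILC2, Pdia3 had 1377 CPM in ZT4 replicate 1, with the next library at 1172 CPM, and Herpud1 had 1665 CPM in ZT23 replicate 1, with the next at 949 CPM.

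The slope on Jchain differed between the cell types for 3 members, by a test of the difference added after the slopes were seen. The Jchain ranges of the cell types do not overlap, so cell type and Jchain range cannot be told apart in that test. ILC3 minus ILC2, the difference of the slopes was -0.72 for Herpud1, -0.61 for Edem1 and -0.68 for Edem2, in log2 units per log2 unit of Jchain.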

How the results depend on the processing

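Of the 25 genes called lower in ILC3, 20 kept the call in all of 22 alternatives other than the Jchain term; Hspa5, Pdia3, Herpud1, Atf6 and Ddit3 lost it in at least 1. Among fits that leave out 1 library, Hspa5 lost it without ILC3 ZT10 replicate 2 or ILC2 ZT4, ZT10 or ZT23 replicate 1 (adjusted p 0.0547 to 0.0751), and Pdia3 without ILC3 ZT4, ZT10 or ZT23 replicate 2, ILC2 ZT4 replicate 1 or ZT23 replicate 2 (0.0507 to 0.0604). Herpud1 lost it without any ILC3 library except ZT4 replicate 1, and without ILC2 ZT4 replicate 2, ZT10 replicate 1 or ZT23 replicate 1 (0.0519 to 0.0901). Atf6 lost it without replicate 2 of any ILC3 time, ILC2 ZT4 replicate 2, ZT10 replicate 1, ZT16 or ZT23 replicate 1 (0.0528 to 0.0749), and Ddit3 without ILC3 ZT10 replicate 2 or ZT16 replicate 1, ILC2 ZT10 replicate 1 or ZT16 (0.0506 to 0.0936). The number called was 20 to 27 over the fits that each leave out 1 library, with 9 to 12 folding genes and 3 to 4 Atf4 branch genes, 26 in DESeq2 and 20 with library size as the only scaling. Under that scaling the median of all genes was 0.26, against 0.11, and 2981 of 4296 calls were higher in ILC3, against 2318 of 4157. Canx changed sign with library size alone (0.12), with the replicate block (0.0032) and over the leave-one-out fits (-0.084 to 0.0043), and Trib3 over those fits (-0.0049 to 0.43).

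With the Jchain term the counts of all members, folding and Atf4 branch genes called were 0, 0 and 0, and the medians were -0.044 for folding and 0.17 for the Atf4 branch. Fitted values turned above 0 for Calr (0.25), Dnajb9 (0.51), Dnajb11 (0.19), Sdf2l1 (1.34), Pdia6 (0.74), Manf (0.56), Creld2 (0.050), Herpud1 (1.12), Syvn1 (0.058), Edem1 (0.18), Edem2 (0.26), Derl1 (0.18), Derl2 (0.65), Sec61b (1.34), Ssr1 (0.025), Atf6 (0.19), Eif2ak3 (0.49), Atf4 (0.51) and Asns (3.07). Part of this follows from the construction, since the Jchain ranges of the cell types do not overlap.

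The folding minus Atf4 branch difference between the cell types went to -0.078 without Chac1. The 12 genes with a called slope on Jchain in ILC2 became 0 to 19 when 1 library was left out, 0 with time as a block and 0 without both ZT23 libraries, an alternative chosen after seeing the data; the cause was not tested. Slopes that changed sign over the leave-one-out fits were those of Pdia3 (-0.056 to 0.011), Atf4 (-0.014 to 0.32) and Trib3 (-0.18 to 0.44), and without both ZT23 libraries those of Hspa5 (-0.0015), Pdia3 (0.026), Atf4 (-0.081) and Trib3 (-0.34).

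Whether the replicate numbers pair the libraries was not settled. Of 21 correlations between groups 6 were over 0.1, with a median of 0.03 and a range of -0.16 to 0.45. No reference value for unpaired libraries was at hand. With the replicate block, which leaves out the ILC2 ZT16 library because its label has no number, 24 members were called, and Ddit3 lost its call (adjusted p = 0.105). Tests of time had 0 members called in every alternative.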
